A study of Mus musculus with 32 samples.

Results

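A set of 10 genes linked to FoxO factors and starvation was followed in 4 murine Ba/F3 cell lines: the transcription factor genes Foxo1, Foxo3 and Foxo4, and the genes Irs2, Pik3ip1, Sesn1, Ccng2, Txnip, Cited2 and Btg1, most of which FoxO factors are known to act on. They are 10 of the 19938 genes that the array measures by a probe set with 1 gene symbol, they are listed by name, with earlier results of these data known, and each has exactly 1 such probe set. Ba/F3 is an interleukin-3-dependent mouse line described as pro-B, here carrying human gp130. The methods keep Ba/F3-gp130 cells in Hyper-IL-6, a fusion of IL-6 with its soluble receptor. Ba/F3-gp130 (parental cells) is the source of the other 3 lines, which also carry a retrovirally transduced receptor: Ba/F3-IL-12Rβ1-IL-23R (natural-receptor cells) has both natural IL-23 receptor chains, Ba/F3-SyCyR(IL-23/2A) (paired-SyCyR cells) has an mCherry nanobody fused to IL-23R together with a GFP nanobody fused to IL-12Rβ1, and Ba/F3-SyCyR(IL-23R) (single-SyCyR cells) has a GFP nanobody fused to IL-23R alone. Each receptor is represented by 1 line, selected and kept in culture for weeks, so a receptor and the history of its line cannot be told apart. By the methods Hyper-IL-6 was removed after antibiotic selection, and the new lines were selected for growth on GFP:mCherry ligands. Natural-receptor cells were given a fusion form of IL-23. The methods do not say line by line which cytokine was in the medium before the arrays, so it is part of that history. By protocol all cells were washed, kept 3 h in serum-free medium and then incubated for 1 h with 100 ng/ml of GFP-mCherry, HmIL-23 (a fusion form of IL-23) or 3xGFP, or with control supernatant. The paper compared natural-receptor cells with and without the IL-23 fusion, paired-SyCyR cells with and without GFP-mCherry, and single-SyCyR cells with and without 3xGFP. Each receptor thus goes with its own ligand, and these cannot be told apart either. Each line has 8 arrays with title numbers 13 to 20. The labels do not say which array received a ligand or what the numbers stand for, so the 4 odd-numbered and 4 even-numbered arrays of each line were compared under those names and no stimulated group was formed.

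FoxO proteins are transcription factors that Akt, the kinase downstream of PI3K, phosphorylates and keeps out of the nucleus. When growth factors and nutrients are withdrawn, FoxO proteins enter the nucleus and switch on genes that slow the cell cycle, restrain nutrient uptake and heighten insulin receptor signaling. In blood cells that depend on cytokines, this program is known to run during starvation and to be shut off again when a cytokine activates PI3K. A fall of such transcripts is therefore a common readout of Akt, although several of these genes also answer to other regulators.

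Values were log2 RMA signals of whole-transcript arrays. The median over all probe sets ranged from 6.94 to 7.18 among the 32 arrays. In this text a gene passed when limma gave an adjusted p under 0.05 over 23410 probe sets with a symbol, and was called when the difference also reached 1.5-fold (0.585 on the log2 scale). Of 16 measured pro-B cell markers 5 lay above 7.04, the array-wide median of the mean signals, in every line (Cd79a, Cd79b, Vpreb2, Igll1 and Ptprc), whereas Pax5, Ebf1, Rag1 and Rag2 lay below it. Markers of other lineages lay above that median too, among them Gata2, Gata1, Mpo and Prtn3. As a reference for the number split, the STAT3 target Socs3 was higher on odd-numbered arrays by 4.57, 3.77 and 2.98 log2 units in natural-receptor cells, paired-SyCyR cells and single-SyCyR cells, and differed by -0.04 in parental cells. The cells were measured in bulk, so fewer cells that express a gene and less of its RNA per cell cannot be told apart.

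**Figure D1:**
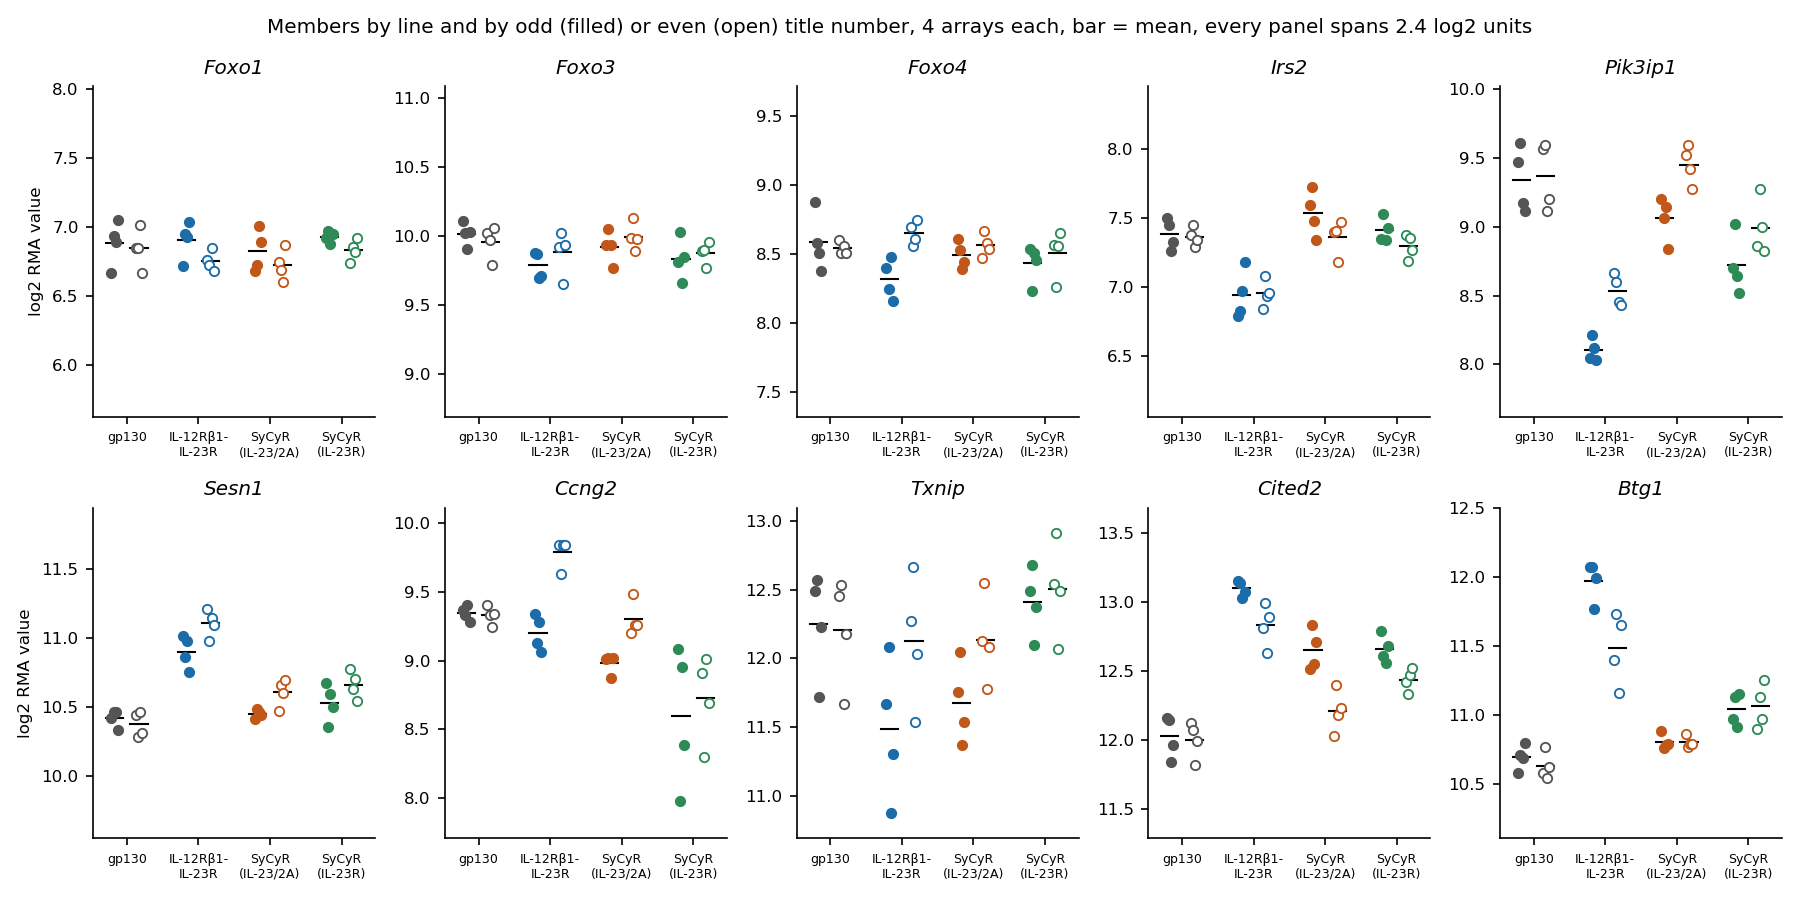
Log2 RMA value of each of the 10 genes on all 32 arrays, by line along the horizontal axis, with odd-numbered arrays filled, even-numbered arrays open and bars at the mean of 4. The lines are labelled by their receptor (gp130 for parental, IL-12Rβ1-IL-23R for natural-receptor, SyCyR(IL-23/2A) for paired-SyCyR and SyCyR(IL-23R) for single-SyCyR cells). Every panel spans 2.4 log2 units, so distances can be compared between panels but levels cannot; Pik3ip1, Ccng2 and Txnip lie lower on the odd-numbered arrays of natural-receptor cells and paired-SyCyR cells, and Cited2 lies higher.

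The comparison of odd-numbered with even-numbered arrays asked whether the FoxO and starvation genes moved with the split that Socs3 followed. In natural-receptor cells, 3 of the 10 were lower on odd-numbered arrays at an adjusted p under 0.05 (Foxo4, Pik3ip1 and Ccng2), against 1.16% of all probe sets, and 1 was higher (Btg1), against 1.96%. None was also 1.5-fold different, a mark that 0.991% of all probe sets reached. At an unadjusted p under 0.05 limma gave 5 lower and 2 higher, where 7.92% of all probe sets were lower and 9.5% higher. The median difference over the 10 genes was -0.15, beside 0.00227 over all probe sets.

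In paired-SyCyR cells, limma found 0 of 10 lower, with 3 at an unadjusted p under 0.05, and 1 higher (Cited2), with 2 at an unadjusted p under 0.05. Among all probe sets 0.107% were lower, 0.846% were higher and 0.487% were called, and at the unadjusted p 2.11% were lower and 4.78% higher. The median over the 10 genes was -0.07, and in single-SyCyR cells it was -0.06. In that line limma found 0 of 10 in either direction, with 2 at an unadjusted p under 0.05 (3.53% of all probe sets), where 0.00427% of all probe sets were lower, 0.171% were higher and 0.137% were called. In parental cells, limma found 0 of 10, also at an unadjusted p under 0.05, and the differences of the 10 genes ran from -0.03 to 0.07. There 0% of all probe sets passed, with 1.11% at an unadjusted p under 0.05. Odd and even arrays did not overlap for 5 of the 10 genes in natural-receptor cells (7.98% of all probe sets), for 3 in paired-SyCyR cells (5.06%), for 1 in single-SyCyR cells (1.76%) and for 0 in parental cells (1.26%).

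These tests took the 4 arrays of a kind as independent. Neighbouring title numbers of a line, however, deviated together, and a fit with each odd number and the next even number (13 and 14, 15 and 16, 17 and 18, 19 and 20) as a block was added after the values were seen. No label gives this pairing, which was read from the values, and the differences are the same by construction. With this block 7 of 10 genes passed in natural-receptor cells (5 lower, 2 higher), where 8.39% of all probe sets did, and 4 of 10 in paired-SyCyR cells (3 lower, 1 higher), where 1.61% did. In single-SyCyR cells limma again gave 0 of 10, against 0.29% of all probe sets. The results below name both fits where they differ.

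**Figure D2:**
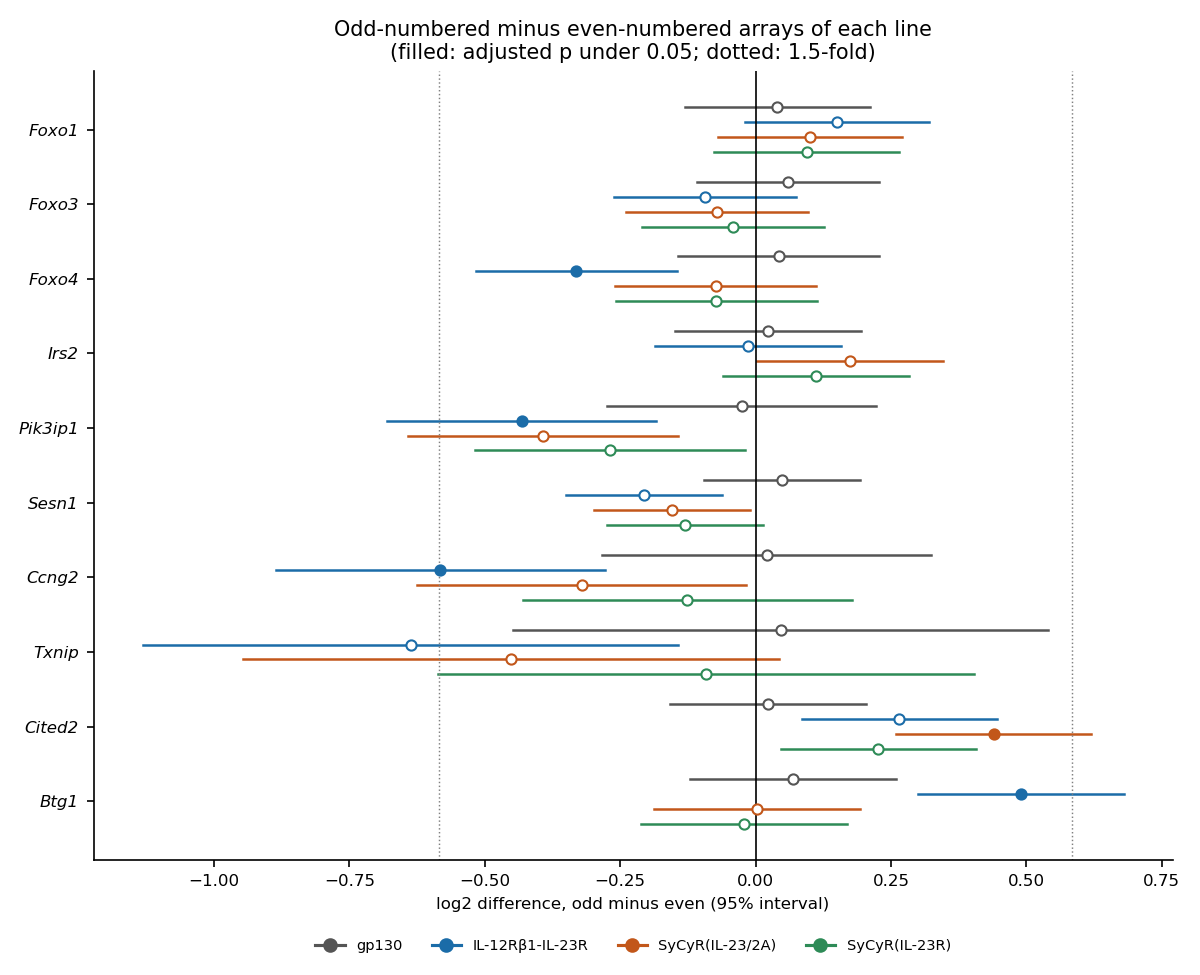
Difference of odd-numbered minus even-numbered arrays (log2 units, horizontal axis) for the 10 genes in each line, with 95% intervals from the limma fit without a block. Filled points passed an adjusted p of 0.05, dotted lines mark 1.5-fold, and the grey intervals of parental cells all include 0.

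Of the FoxO factor genes themselves, 1 passed in 1 line. Foxo1 (chromosome 3, 52268337 to 52350109, GRCm38.p6) encodes the FoxO factor best known from insulin signaling and from B cell development. Its probe set was dim, with a mean of 6.84 that lies below the median of all probe sets, and it ranged from 6.60 to 7.05 over the 32 arrays. Foxo3 (chromosome 10, 42181845 to 42276695), the family member best known from cytokine withdrawal in blood cells, ranged from 9.65 to 10.13. In no line did either gene pass, with differences of 0.04 to 0.15 for Foxo1 and -0.09 to 0.06 for Foxo3.

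Foxo4 (chromosome X, 101254261 to 101260873) encodes the third factor. On the odd-numbered arrays of natural-receptor cells it read 8.40, 8.25, 8.48 and 8.16, and on the even-numbered arrays 8.70, 8.56, 8.61 and 8.75. All odd-numbered arrays lay below all even-numbered ones, by 0.076 at the closest. The difference was -0.33 ± 0.09 (SE, n = 4 and 4, limma adjusted p = 0.037). Without array 14, 15, 18, 19 or 20 of this line it no longer passed, with differences of -0.35 to -0.28 and adjusted p up to 0.194. Odd and even arrays overlapped in the other lines, where the differences were -0.07, -0.07 and 0.04. Thus only in the line with the natural receptor chains did Foxo4 pass, but the difference to parental cells of -0.37 did not (adjusted p = 0.23, and 0.07 with the neighbouring-number block).

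Irs2 and Pik3ip1 sit at the input of PI3K. Irs2 (chromosome 8, 10984681 to 11008929), a docking protein that couples insulin and cytokine receptors to PI3K and a textbook FoxO target, did not pass in any line. Its differences were 0.02 in parental cells, -0.01 in natural-receptor cells, 0.17 in paired-SyCyR cells and 0.11 in single-SyCyR cells. Its 95% interval in natural-receptor cells ran from -0.185 to 0.158.

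Pik3ip1 (chromosome 11, 3319241 to 3342971) encodes a transmembrane protein that binds and restrains PI3K. In natural-receptor cells it read 8.05, 8.21, 8.12 and 8.03 on odd-numbered and 8.66, 8.60, 8.45 and 8.43 on even-numbered arrays. In paired-SyCyR cells the odd-numbered arrays read 9.20, 9.06, 9.14 and 8.84 and the even-numbered ones 9.52, 9.59, 9.42 and 9.27. No odd-numbered array of these lines reached the level of an even-numbered one. In single-SyCyR cells the values were 8.70, 9.02, 8.64 and 8.52 against 8.82 to 9.27, which overlap, although each odd number was below the next even number. Parental cells had 9.47, 9.61, 9.17 and 9.11 against 9.56, 9.59, 9.11 and 9.20, with 2 of 4 odd numbers below their neighbours.

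The Pik3ip1 difference was -0.43 ± 0.12 in natural-receptor cells (SE, n = 4 and 4, limma adjusted p = 0.045). It no longer passed when any 1 of the 8 arrays of the line was left out, with differences of -0.47 to -0.39 and adjusted p up to 0.151. In paired-SyCyR cells the difference was -0.39 ± 0.12 (adjusted p = 0.21), and in single-SyCyR cells it was -0.27 ± 0.12 (adjusted p = 1). With neighbouring numbers as a block the adjusted p values were 5.3e-05, 0.00029 and 0.053, in the same order. Pik3ip1 and Sesn1 were the 2 members whose odd-numbered arrays all lay below the next even number in all 3 receptor lines, as 1.18% of all probe sets did.

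Sesn1, Ccng2 and Txnip are targets linked to stress and growth arrest. Sesn1 (chromosome 10, 41810574 to 41908436) encodes a sestrin, which restrains the growth kinase mTORC1 when nutrients are short. Its differences were small, at -0.21 ± 0.07, -0.15 ± 0.07 and -0.13 ± 0.07 in the receptor lines in the order used above, and none passed (adjusted p = 0.12, 0.67 and 1). Odd and even arrays overlapped in each line, although the neighbouring numbers all ran one way, with odd minus next even from -0.340 to -0.127, from -0.241 to -0.062 and from -0.286 to -0.035. In natural-receptor cells it passed with the neighbouring-number block (adjusted p = 0.022).

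Ccng2 (chromosome 5, 93267573 to 93276231) encodes cyclin G2, an atypical cyclin that goes with cell cycle arrest and a well-known FoxO target. The odd-numbered arrays of natural-receptor cells read 9.34, 9.13, 9.28 and 9.06 and the even-numbered arrays 9.84, 9.63, 9.84 and 9.84. Those of paired-SyCyR cells read 9.01, 9.02, 8.87 and 9.02 against 9.20, 9.48, 9.26 and 9.26. In both lines the odd-numbered arrays lay wholly below the even-numbered ones. Parental cells kept to a narrow range, from 9.24 to 9.40 over 8 arrays. Single-SyCyR cells were the most scattered, with 9.08, 7.98, 8.95 and 8.39 on odd-numbered and 8.91, 8.30, 9.01 and 8.69 on even-numbered arrays, and their lowest values came from the neighbours 15 and 16.

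The Ccng2 difference in natural-receptor cells was -0.58 ± 0.15 (SE, n = 4 and 4, adjusted p = 0.022), just short of 1.5-fold. Leaving out array 14, 15, 18, 19 or 20 of the line gave -0.56 to -0.53, which did not pass (adjusted p up to 0.101), and without array 13, 16 or 17 the difference passed 1.5-fold, with -0.64 at most. In paired-SyCyR cells the difference was -0.32 ± 0.15 and passed with the block only (adjusted p = 0.68 without and 0.03 with it). In single-SyCyR cells it was -0.13 ± 0.15 (adjusted p = 1, and 0.75 with the block).

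Txnip (chromosome 3, 96557957 to 96561857) encodes thioredoxin-interacting protein, an arrestin that removes glucose transporters from the cell surface and binds thioredoxin. It had the widest range of the 10 genes, 2.03 log2 units over the 24 arrays of the receptor lines. In natural-receptor cells arrays 13, 15, 17 and 19 read 11.67, 12.08, 10.88 and 11.31, and arrays 14, 16, 18 and 20 read 12.27, 12.66, 11.54 and 12.03. In paired-SyCyR cells they read 11.76, 12.05, 11.37 and 11.54 against 12.13, 12.55, 11.78 and 12.08. The groups overlapped in both lines because the neighbouring numbers lay at very different levels, but each odd number was well below the next even number.

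Taken number by number, the odd minus next even difference of Txnip ran from -0.716 to -0.578 log2 units in natural-receptor cells and from -0.545 to -0.366 in paired-SyCyR cells. In parental cells, which read 12.49, 12.57, 11.72 and 12.23 against 12.45, 12.53, 11.67 and 12.18, the odd array was higher every time, by only 0.033 to 0.052. Single-SyCyR cells, with 12.49, 12.68, 12.10 and 12.37 against 12.54, 12.91, 12.07 and 12.49, lay between, from -0.233 to 0.034. The order of the neighbouring numbers was the same in all 8 groups of 4 arrays: 15 or 16 was highest, then 13 or 14, then 19 or 20, and 17 or 18 was lowest. No other member kept 1 order in more than 3 of the 8 groups.

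The fit without a block reads this shared scatter as error. It gave -0.64 ± 0.24 in natural-receptor cells (SE, n = 4 and 4, adjusted p = 0.17) and -0.45 ± 0.24 in paired-SyCyR cells (adjusted p = 0.77). The fit with the neighbouring-number block gave the same differences with SE 0.05 and adjusted p of 4.1e-08 and 9.1e-06, and Txnip was then the only member called, in natural-receptor cells. In single-SyCyR cells the difference of -0.09 did not pass in either fit (adjusted p = 1 and 0.72).

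**Figure D3:**
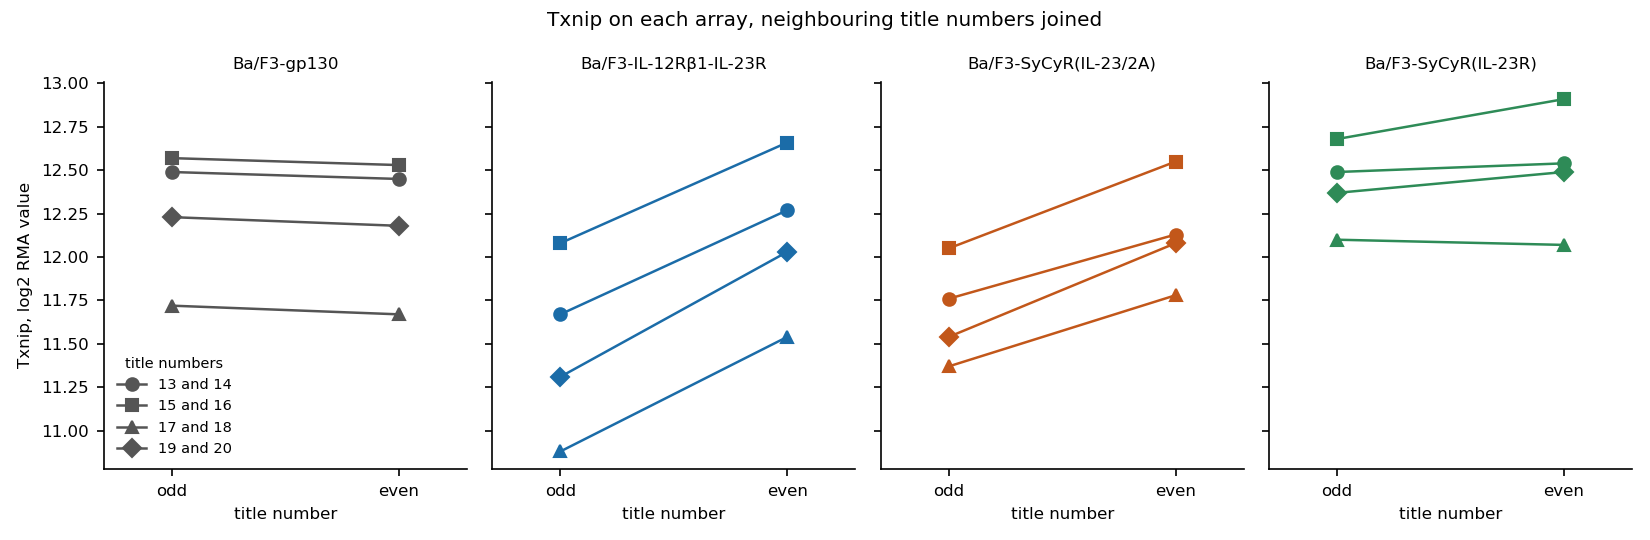
Txnip (log2 RMA value, vertical axis) on each array, with an odd title number and the next even number of the same line joined by a line and 1 symbol per pair of numbers. The lines run level in parental cells, rise steeply to the even number in natural-receptor cells and paired-SyCyR cells, and keep the same vertical order of symbols in every panel.

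Cited2 and Btg1 were higher on odd-numbered arrays where they passed. Cited2 (chromosome 10, 17723228 to 17725674) encodes a co-regulator that binds CBP and p300 and is induced by cytokines as well as by FoxO. In every receptor line its odd-numbered arrays lay above the even-numbered ones. They read 13.15, 13.14, 13.03 and 13.07 against 12.81, 12.99, 12.63 and 12.89 in natural-receptor cells. In paired-SyCyR cells the values were 12.51, 12.83, 12.55 and 12.71 against 12.03, 12.40, 12.18 and 12.23, and in single-SyCyR cells they were 12.79, 12.61, 12.56 and 12.68 against 12.42, 12.33, 12.47 and 12.52. It was the only one of the 10 genes without overlap in all 3 receptor lines, which 0.41% of all probe sets shared, while in parental cells 12.16, 12.14, 11.84 and 11.96 stood against 12.12, 12.07, 11.82 and 11.99.

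The Cited2 difference was 0.44 ± 0.09 in paired-SyCyR cells (SE, n = 4 and 4, adjusted p = 0.0048), 0.27 ± 0.09 in natural-receptor cells (adjusted p = 0.11) and 0.23 ± 0.09 in single-SyCyR cells (adjusted p = 1). When the 8 arrays of paired-SyCyR cells were fitted alone, the adjusted p was 0.055. With the block the values were 4.8e-05, 0.0044 and 0.12.

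Btg1 (chromosome 10, 96617001 to 96622813) encodes an antiproliferative protein that recruits the mRNA deadenylation machinery. On odd-numbered arrays of natural-receptor cells it read 12.07, 12.07, 11.77 and 11.99, and on even-numbered arrays 11.40, 11.73, 11.16 and 11.65. The odd-numbered arrays were all above the even-numbered ones. Parental cells read 10.58, 10.71, 10.69 and 10.80 against 10.58, 10.77, 10.54 and 10.62. Odd and even arrays overlapped there and in both SyCyR lines. In paired-SyCyR cells all 8 arrays lay between 10.76 and 10.88, and in single-SyCyR cells odd-numbered arrays ranged from 10.91 to 11.15 and even-numbered ones from 10.90 to 11.25.

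The Btg1 difference was 0.49 ± 0.09 in natural-receptor cells (SE, n = 4 and 4, adjusted p = 0.00096), 0.00 ± 0.09 in paired-SyCyR cells (adjusted p = 1) and -0.02 ± 0.09 in single-SyCyR cells (adjusted p = 1). It passed in the first of these whichever single array was left out, with adjusted p up to 0.0095, but not when that line was fitted on its 8 arrays alone (adjusted p = 0.09). In paired-SyCyR cells the 95% interval was -0.188 to 0.192.

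The start regions of the members were searched because the genes were chosen as FoxO-linked. RefSeq windows of GRCm38.p6, from 250 bases before to 50 bases after the start, covered 9 of the 10 genes in 10 windows, Foxo4 having none. The forkhead heptamer GTAAACA, on either strand, was found in 3 of the 9 genes, Txnip, Btg1 and Sesn1, and in 4.05% of all 27025 genes with a window. Sesn1 has 2 windows and only 1 of them held it, past the start at position 23. In Txnip and Btg1 it lay before the start, at positions -121 and -204. The E-box CACGTG was found in Irs2 and Cited2 (8.09% of all genes), and the STAT spacing TTCNNNGAA was in no member (9.55% of all genes). A match describes the letters of the window and not a bound site, and no match says only that these letters are not in it.

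Txnip and Btg1 are printed because both hold the heptamer while Txnip was lower and Btg1 higher on the odd-numbered arrays of natural-receptor cells. Of these differences, that of Txnip passed with the neighbouring-number block only. The short Sesn1 stretch shows the third match. Each is the plus strand, 5′ to 3′, with the heptamer in capitals. For Btg1 and Sesn1 it lies on the minus strand and reads TGTTTAC here. The Txnip stretch is chr3:96557707-96557956, the Btg1 stretch chr10:96616751-96617000 and the Sesn1 stretch chr10:41810585-41810613, the first and second ending at the base before the start.
Txnip: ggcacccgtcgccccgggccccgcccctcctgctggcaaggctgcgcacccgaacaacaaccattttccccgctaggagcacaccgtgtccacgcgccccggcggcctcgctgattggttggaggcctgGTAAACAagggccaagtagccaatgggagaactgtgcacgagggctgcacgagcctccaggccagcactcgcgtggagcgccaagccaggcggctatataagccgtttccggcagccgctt
Btg1: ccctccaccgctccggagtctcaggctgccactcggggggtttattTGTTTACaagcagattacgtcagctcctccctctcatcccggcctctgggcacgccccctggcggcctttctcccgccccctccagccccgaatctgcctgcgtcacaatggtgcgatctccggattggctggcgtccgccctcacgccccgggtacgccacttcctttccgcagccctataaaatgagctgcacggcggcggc
Sesn1: gaaccttctacTGTTTACcagccttttgg

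Whether the odd minus even difference itself differed between lines was tested directly. Without a block, limma gave 0 of 10 members at an adjusted p under 0.05 in each of the 5 comparisons of lines, with 5 for natural-receptor cells against parental cells, 2 for paired-SyCyR cells against parental cells, 0 for single-SyCyR cells against parental cells, 1 for paired-SyCyR cells against natural-receptor cells and 0 between the SyCyR lines at an unadjusted p under 0.05. Of all probe sets 1.2%, 0.402%, 0.0982%, 0.111% and 0.0812% passed, in that order, and 9.94%, 3.97%, 2.49%, 2.97% and 2.47% were at an unadjusted p under 0.05. The smallest adjusted p of a member was 0.15, for Btg1 in natural-receptor cells against parental cells, and it was 0.046 (a difference of 0.50) without array 16 of natural-receptor cells.

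With the neighbouring-number block 4 members differed from parental cells in natural-receptor cells (2.58% of all probe sets). They were Txnip by -0.68 (adjusted p = 3.4e-06), Ccng2 by -0.60 (0.0021), Pik3ip1 by -0.41 (0.00635) and Btg1 by 0.42 (0.00685). In paired-SyCyR cells there were 3 (0.829% of all probe sets): Txnip by -0.50 (adjusted p = 0.00039), Cited2 by 0.42 (0.0065) and Pik3ip1 by -0.37 (0.029). These lines share the arrays of parental cells. Between receptor lines, the Btg1 difference changed by -0.49 from natural-receptor cells to paired-SyCyR cells (adjusted p = 0.011, with 0.333% of all probe sets passing). Txnip differed by 0.36 between single-SyCyR cells and paired-SyCyR cells (adjusted p = 0.035, with 0.205% passing). With the same title number across lines as a block instead, Txnip (adjusted p = 0.00052) and Btg1 (0.041) passed in natural-receptor cells against parental cells (2.52% of all probe sets), and Txnip (0.035) in paired-SyCyR cells against parental cells (0.73%). Under that block neither difference between receptor lines passed, with adjusted p of 0.063 for Btg1 (0.278% of all probe sets passing) and 0.61 for Txnip (0.158%).

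The lines also differed in the level of these genes over all 8 arrays, taken as the mean of the odd-numbered and even-numbered arrays. Relative to parental cells, 5 of 10 genes passed in natural-receptor cells, 2 lower (10.5% of all probe sets) and 3 higher (7.91%), and 4 were called (2.97%). In single-SyCyR cells 5 passed, 2 lower (8.68%) and 3 higher (6.74%), and 1 was called (1.61%). In paired-SyCyR cells 1 passed, and it was higher (3.04%, with 4.24% lower), and limma called 0 (0.739%), with 3 at an unadjusted p under 0.05 (19.7% of all probe sets). The comparisons share the arrays of parental cells.

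Pik3ip1 was lowest in natural-receptor cells, at 8.03 to 8.66 with a median of 8.32, then in single-SyCyR cells at 8.52 to 9.27 (median 8.84), paired-SyCyR cells at 8.84 to 9.59 (9.24) and parental cells at 9.11 to 9.61 (9.33). The arrays of natural-receptor cells lay wholly below those of parental cells, with a difference of -1.03 ± 0.09 (SE, n = 8 and 8, adjusted p = 5.1e-11). Single-SyCyR cells differed from parental cells by -0.50 ± 0.09 (adjusted p = 9e-05), which did not pass on the even-numbered arrays alone (-0.37, adjusted p = 0.063). The neighbours paired-SyCyR cells and parental cells did not differ beyond their spread (-0.10, adjusted p = 0.6).

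Btg1, Cited2 and Sesn1 had the opposite order, with parental cells lowest and natural-receptor cells highest. Btg1 ranged from 10.54 to 10.80 (median 10.66) in parental cells, from 10.76 to 10.88 (10.79) in paired-SyCyR cells, from 10.90 to 11.25 (11.05) in single-SyCyR cells and from 11.16 to 12.07 (11.75) in natural-receptor cells. The last of these were 1.07 ± 0.07 above parental cells (adjusted p = 4.3e-14) and single-SyCyR cells were 0.39 ± 0.07 above them (adjusted p = 6.6e-05), both without overlap. Paired-SyCyR cells were 0.14 above them and did not pass (adjusted p = 0.23).

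Cited2 passed in all 3 receptor lines, by 0.95 ± 0.06 (adjusted p = 1.9e-13), 0.42 ± 0.06 (2.7e-05) and 0.54 ± 0.06 (1.6e-07) in natural-receptor, paired-SyCyR and single-SyCyR cells, in that order. Its medians were 12.03 in parental cells and 13.01, 12.45 and 12.54 in these lines. On the even-numbered arrays alone the difference of paired-SyCyR cells was 0.21 (adjusted p = 0.39). Sesn1 was 0.61 ± 0.05 higher in natural-receptor cells (adjusted p = 3.9e-11), where its lowest array at 10.75 was above the highest of parental cells at 10.46. In single-SyCyR cells it was 0.20 ± 0.05 higher (adjusted p = 0.0052), but 0.11 on the odd-numbered arrays alone (adjusted p = 0.44).

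Over all 8 arrays of a line, Irs2 and Ccng2 were each set apart from parental cells in 1 line. Irs2 ranged from 6.79 to 7.18 (median 6.95) in natural-receptor cells, below all 8 arrays of parental cells at 7.26 to 7.50 (7.36), a difference of -0.42 ± 0.06 (adjusted p = 1.6e-06). The medians of single-SyCyR cells and paired-SyCyR cells were 7.36 and 7.44, and neither differed from parental cells beyond the spread (adjusted p = 0.89 and 0.53). Ccng2 ranged from 7.98 to 9.08 (median 8.80) in single-SyCyR cells, below all arrays of parental cells, and differed by -0.67 ± 0.105 there (SE, adjusted p = 2.1e-05). Without array 15 of that line the difference was -0.57 and no longer reached 1.5-fold. In natural-receptor cells the level of Ccng2 did not pass (0.16, limma adjusted p = 0.37). Their even-numbered arrays, at 9.63 to 9.84, nevertheless all lay above those of parental cells at 9.24 to 9.40. The odd-numbered ones ranged from 9.06 to 9.34.

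The levels of Foxo1, Foxo3, Foxo4 and Txnip did not pass in any line, with differences from -0.42 to 0.23. In natural-receptor cells the differences were -0.42 for Txnip (adjusted p = 0.088) and -0.15 for Foxo3 (adjusted p = 0.073). With the title number as a block across lines both passed (2.3e-06 and 0.0068), as did 25% of all probe sets. In the fit without a block, Txnip passed without array 17 or 18 of parental cells or array 15 or 16 of natural-receptor cells (adjusted p = 0.028 to 0.034). Foxo3 passed without array 18 of parental cells or array 16 of natural-receptor cells (0.03 and 0.044). Marker genes of other lineages moved with the lines too. Of all probe sets 18.4% passed by level in natural-receptor cells, 7.28% in paired-SyCyR cells and 15.4% in single-SyCyR cells. Of 10 mast cell and basophil markers 5 were lower in natural-receptor cells than in parental cells. The summed signal of the list was 12.33 to 12.83 against 13.08 to 13.32 (log2 of the sum over the list). That sum rests mostly on 1 marker, since the brightest had a median of 13.05 in parental cells and 12.26 in natural-receptor cells. Of 12 granulocyte and macrophage markers 3 were lower there, at 11.76 to 12.08 against 12.09 to 12.36, and 3 of 6 erythroid and megakaryocyte markers were higher, at 12.09 to 12.65 against 11.90 to 12.27. In single-SyCyR cells 3 granulocyte and macrophage markers were higher and 1 lower, at 12.15 to 12.49, 1 mast cell and basophil marker was higher and 2 lower, at 12.90 to 13.27, and 1 erythroid and megakaryocyte marker was higher and 2 lower. In paired-SyCyR cells 2 granulocyte and macrophage markers were higher, at 12.31 to 12.64, 1 mast cell and basophil marker was higher and 1 lower, and 1 erythroid and megakaryocyte marker was higher. The sum over the pro-B list stayed between 12.41 and 12.73 in all lines, but Cd79a, a subunit of the B cell receptor, was called higher in natural-receptor cells (1.015 ± 0.09, adjusted p = 8.4e-11) and in paired-SyCyR cells (0.76 ± 0.09, adjusted p = 2.7e-07), and Ptprc was lower in the latter (-0.28, adjusted p = 5.5e-05). Of 7 measured T cell markers 1 was higher in natural-receptor cells. Their part in the level differences was not tested.

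**Figure D4:**
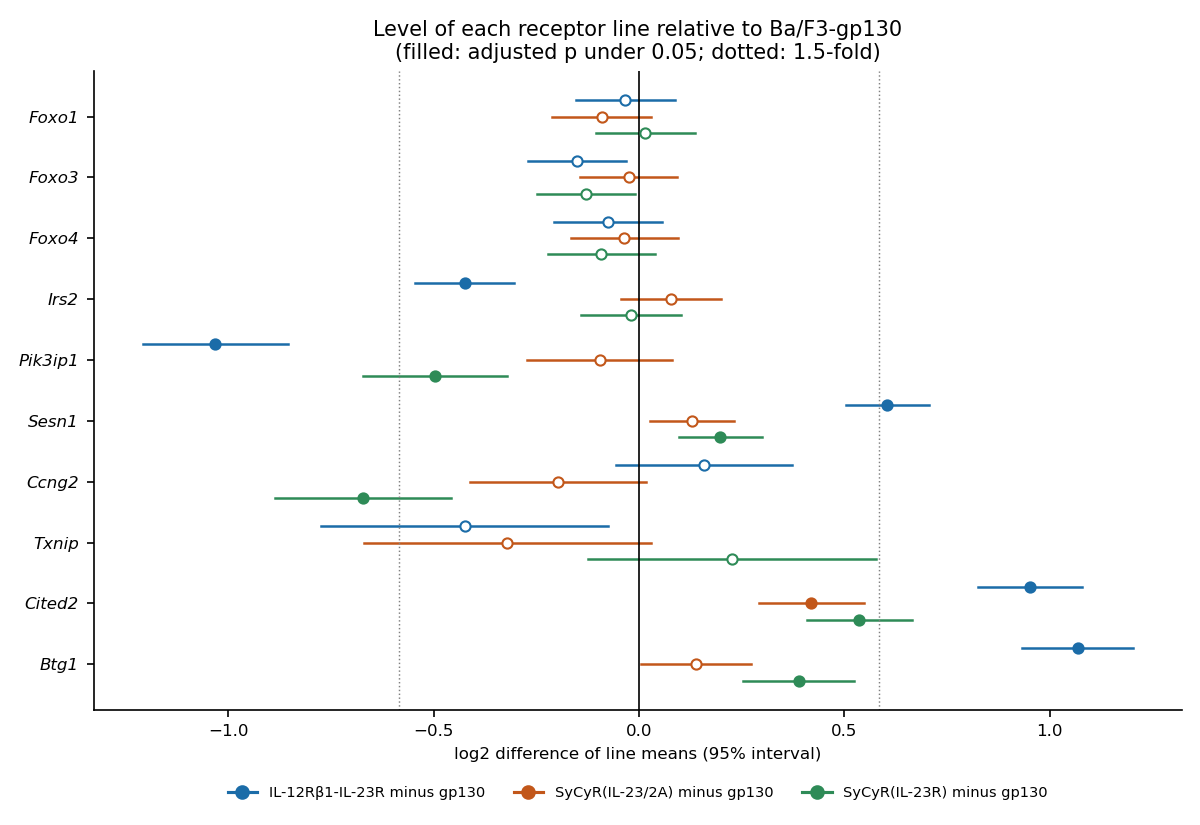
Level of the 10 genes in each receptor line minus parental cells (log2 units, horizontal axis), with 95% intervals from limma over 8 and 8 arrays. Filled points passed an adjusted p of 0.05 and dotted lines mark 1.5-fold; in natural-receptor cells Pik3ip1 lies at -1.03 and Btg1 at 1.07.

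Genes around the members were taken from lists. The PI3K-Akt list holds kinase subunits, Akt, lipid phosphatases, adaptors and mTOR components, and 32 of its 34 genes were measured. Between odd-numbered and even-numbered arrays limma gave 0 of 32 in every line, with 0, 4, 1 and 0 at an unadjusted p under 0.05 in parental cells, natural-receptor cells, paired-SyCyR cells and single-SyCyR cells, beside 1.11%, 17.4%, 6.88% and 3.53% of all probe sets. By level, 15 of 32 passed in natural-receptor cells (5 higher, 10 lower), 4 in paired-SyCyR cells (1 higher, 3 lower) and 11 in single-SyCyR cells (5 higher, 6 lower), where 18.4%, 7.28% and 15.4% of all probe sets did. The called ones were Inpp4b, a lipid phosphatase, at 0.69 in natural-receptor cells and 0.85 in single-SyCyR cells, and, in natural-receptor cells, Pik3ap1, a PI3K adaptor of B cells, at -0.74 and Gsk3b, a kinase that Akt inhibits, at -0.60. These 3 were named for their call by level after their values were seen.

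Among 38 measured other genes linked to FoxO or starvation, 8 passed between odd-numbered and even-numbered arrays in natural-receptor cells (3 higher, 5 lower), 6 in paired-SyCyR cells (3 higher, 3 lower) and 1 in single-SyCyR cells (higher), where 3.12%, 0.953% and 0.175% of all probe sets did. In parental cells limma gave 0, also at an unadjusted p under 0.05. The median difference of the list was -0.08, -0.03 and -0.06 in the receptor lines, beside 0.00227, -0.000499 and -0.00156 over all probe sets. Against the odd minus even difference of parental cells, 6 of the 38 passed in natural-receptor cells (3 higher and 3 lower, 1.2% of all probe sets). In paired-SyCyR cells 4 did (3 higher and 1 lower, 0.402%).

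The lower ones included Ddit4, an mTORC1 inhibitor induced by stress, which ranged from 7.97 to 8.48 on odd-numbered and from 9.05 to 9.71 on even-numbered arrays of natural-receptor cells. Its difference was -1.28 ± 0.12 there (adjusted p = 7.3e-09) and -0.56 ± 0.12 in paired-SyCyR cells (adjusted p = 0.013). Arrdc3, an arrestin related to Txnip, differed by -1.075 ± 0.21 in natural-receptor cells (adjusted p = 0.0013) and by -0.74 in paired-SyCyR cells, where it did not pass (adjusted p = 0.11). The other lower ones in natural-receptor cells were Tsc22d3, Cdkn1b and Atg14, at -0.57, -0.47 and -0.45, named after their values were seen. Cdkn1b encodes the cell cycle inhibitor p27 and is a classic FoxO target.

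The higher ones were Bcl6, Gadd45b and Btg2, which encode a transcriptional repressor, a stress response protein and a relative of Btg1, and which cytokines or early response pathways are also known to induce. Bcl6 ranged from 8.24 to 8.91 on odd-numbered and from 6.72 to 7.20 on even-numbered arrays of natural-receptor cells, a difference of 1.67 ± 0.12 (adjusted p = 1e-11). It was 0.77 ± 0.12 in paired-SyCyR cells (adjusted p = 0.00013), and the difference between these lines passed (-0.89, adjusted p = 0.016). Gadd45b was higher by 1.42, 1.09 and 0.65 in the 3 receptor lines, and Btg2 by 0.81 and 0.84 in natural-receptor cells and paired-SyCyR cells. Unlike Btg1, Btg2 thus passed in both of these lines.

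**Figure D5:**
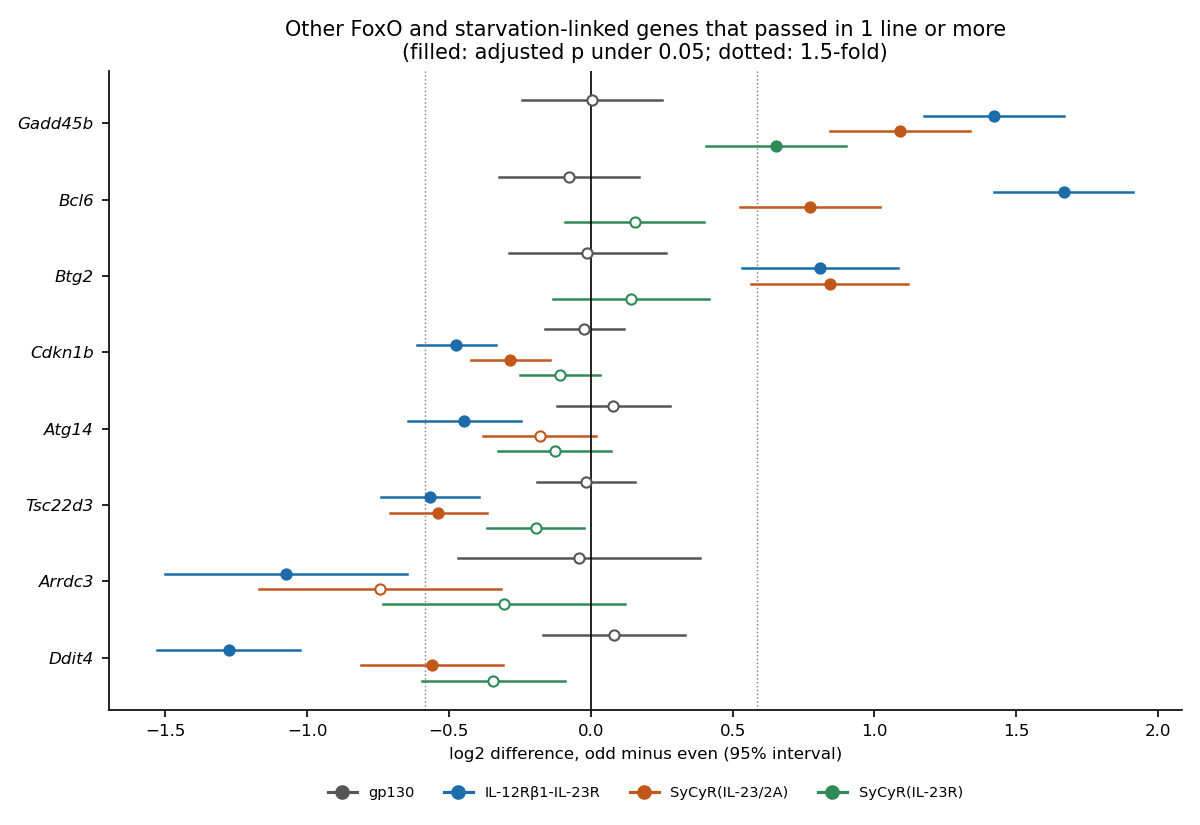
Difference of odd-numbered minus even-numbered arrays (log2 units, horizontal axis, 95% intervals) for the 8 other FoxO-linked or starvation-linked genes that passed in at least 1 line, filled where they passed. Gadd45b, Bcl6 and Btg2 lie to the right of 0 and Cdkn1b, Atg14, Tsc22d3, Arrdc3 and Ddit4 to the left in natural-receptor cells.

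Of 7 measured relatives of Cited2, Btg1 and Ccng2, 2 passed in natural-receptor cells and in paired-SyCyR cells, both higher. Among all probe sets 1.96% and 0.846% did. The 2 were Btg2, already counted above, and Tob1, another antiproliferative protein of the Btg family. Tob1 differed by 0.33 and 0.48 and was named after its values were seen. In single-SyCyR cells and parental cells limma gave 0 of 7, also at an unadjusted p under 0.05. Of 14 STAT3 and ERK early response genes, 12 passed in natural-receptor cells, 12 in paired-SyCyR cells and 9 in single-SyCyR cells, all higher. In these lines 1.96%, 0.846% and 0.171% of all probe sets were higher. The list includes genes that the paper reports as raised on these arrays, so its counts are a reference for the split and no test. The median difference of the 14 genes was 2.27, 1.90 and 1.14, and the largest difference of a member in these lines was -0.64. Those called in at least 1 line with the largest mean differences were Socs3, Osm, Il10, Egr2, Ier3, Pim1, Cish, Junb, Fos and Socs1.

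The members did not vary as 1 group. Over the 32 arrays Pearson's r was 0.83 between Btg1 and Cited2, 0.72 between Btg1 and Sesn1, -0.85 between Btg1 and Pik3ip1 and -0.81 between Irs2 and Sesn1. These values describe arrays that share lines, and the arrays of natural-receptor cells did not overlap those of parental cells for any of these 5 genes, nor for 6.43% of all probe sets. The genes most like the 3 most variable members were Lyl1, Sgpl1 and Niban1 for Txnip (r = 0.918, 0.899 and 0.881), H2bc21, Ccdc28a and 1110032A03Rik for Ccng2 (0.911, 0.91 and 0.908) and Fut7, Klhl22 and Top3b for Pik3ip1 (0.934, 0.926 and 0.91). No other member was among these genes, and the nearest genes of the remaining members were not sought.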

How the data were processed

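Expression was measured on Affymetrix whole-transcript mouse arrays of 32 samples. Per the labels and the methods, the authors ran RMA in Affymetrix Expression Console and deposited one table of log2 values for 35556 probe sets. No source used here gives its version. RMA draws the arrays to a common distribution, so a shift shared by most genes would not show. Arrays give no read depth, and their number limits the precision.

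Lines were taken from the labels. Gene names came from the platform annotation, and coordinates and windows from RefSeq GRCm38.p6. A probe set with 1 symbol was used for each gene. The model was fitted with limma 3.58.1 (functions lmFit and eBayes, R 4.3.3) to the 8 groups of line by odd or even title number over the 23410 probe sets with a symbol, without covariates, and p-values were Benjamini-Hochberg adjusted over all of them for each comparison. The methods speak of independent biological replicates but not of which arrays they are, so p-values measure the spread between these arrays. Tables and figures were made in Python 3.11.15 (pandas 2.3.3, matplotlib 3.10.9). The limma step was checked on simulated data.

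The 10 genes, the lists and the split by number were chosen with earlier results of these data known. Named genes are the 10 members, list genes called between odd-numbered and even-numbered arrays in at least 1 receptor line (up to 10 a list), and for the 3 members of widest range the 3 genes of highest correlation. Pairing was checked by correlating deviations from group means: same numbers in different lines had medians of 0.25 to 0.35 and a lowest r of 0.062 to 0.115, above 0.1 in 2 of 6 pairs of lines, while an odd number and the next even number of a line had a lowest r of 0.132 to 0.28 and medians of 0.302 to 0.428. Alternatives covered probe sets, centring, variance model, threshold, blocks and arrays left out. FoxO protein sequences were not used here.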

Additional observations from a re-analysis of the deposited data

Results flagged for a closer look

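In 120 groups of 4 or 8 arrays of the 10 genes, 3 held an array far from the others, where chance gives about 5% of groups. Foxo4 was 8.88 on array 13 of parental cells, while the other 7 arrays of the line lay between 8.38 and 8.60. Ccng2 was 9.63 on array 16 of natural-receptor cells, below 9.84 on each of the other 3 even-numbered arrays, and without it the odd minus even difference of the line was -0.64. Ccng2 was 8.87 on array 17 of paired-SyCyR cells, below 9.01 to 9.02 on the other odd-numbered arrays.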

How the results depend on the processing

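Most values kept their direction and their side of the threshold. Counts of genes and differences of single genes were tallied for each comparison and setting, so the same gene recurs many times. Of the counts, 505 moved by less than 1.5 times and 37 moved more. Of the differences of single genes, 2411 stayed the same, 39 were newly past the threshold and 29 no longer were. A further 99 differences, which passed in neither fit, changed sign, while none that passed did. In natural-receptor cells, 4 members passed and 0 were called between odd-numbered and even-numbered arrays. The number that passed was 2 when all probe sets were tested (Foxo4 then had adjusted p = 0.052 and Pik3ip1 0.067). It was 2 when the line was fitted on its 8 arrays alone (Foxo4 0.11, Btg1 0.09). Without arrays 17 and 18 of all lines it was 1 (Foxo4 0.066, Pik3ip1 0.12, Ccng2 0.083). There 2.46% of all probe sets passed, against 3.12% in the main fit. With no fold limit 4 would be called in natural-receptor cells (3.12% of all probe sets) and 1 in paired-SyCyR cells (0.953%). By level it would be 1 in paired-SyCyR cells (7.28%) and 5 in single-SyCyR cells (15.4%). With every array shifted to the same median, 1 was called in natural-receptor cells (Ccng2, at -0.64) and 2 by level in single-SyCyR cells. In these comparisons 2.6% and 22.8% of all probe sets passed with that shift, and the share called was not counted. Paired-SyCyR cells fitted alone gave 0 passed. The level of paired-SyCyR cells gave 0 on even-numbered arrays alone and 1 called on odd-numbered ones, where single-SyCyR cells gave 3. The methods' threshold was an unadjusted p of at most 0.01 and 1.5-fold. It called 1 member for the odd minus even difference of natural-receptor cells against that of parental cells. Leaving out 1 array gave 1 to 3 passed and 0 to 1 called between odd-numbered and even-numbered arrays of natural-receptor cells. For that difference against the one of parental cells it gave 0 to 1 passed. By level it gave 0 to 1 called in single-SyCyR cells. The cause of these shifts was not tested, and some settings also had fewer arrays or more probe sets. For settings named without a share of all probe sets, that share was not counted, so their counts stand without a background.

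The replicate block of neighbouring numbers, added after seeing the data, gave 7 passed and 1 called in natural-receptor cells, 4 passed in paired-SyCyR cells, and for the differences between lines 4 passed and 2 called, 3, 1 and 1 as described above. It changed no other call in these comparisons. Same title numbers in different lines also deviated together (median r of 0.25 to 0.35, against -0.057 to -0.036 for other numbers), but every r was over 0.1 only for natural-receptor cells with parental or paired-SyCyR cells. As a fixed block it gave 2 passed and 1 called for the odd minus even difference between natural-receptor and parental cells. There 2.52% of all probe sets passed. For that difference between paired-SyCyR and parental cells it gave 1 passed (Txnip, adjusted p = 0.035), where 0.73% of all probe sets did. By level 2 passed in paired-SyCyR cells, where 13.7% of all probe sets did. The gene it added by level in paired-SyCyR cells was Txnip (-0.32, adjusted p = 0.00039). In single-SyCyR cells it added Txnip (0.23, adjusted p = 0.005) and Foxo3 (-0.13, adjusted p = 0.023), where 22.9% of all probe sets passed. As a random block, with a correlation of 0.244, it gave 1 passed for the odd minus even difference between natural-receptor and parental cells. Here 2.41% of all probe sets passed. Other probe sets of a member could not be tried, since each has 1. The signal of Foxo1, below the median of all probe sets, limits what can be seen of that gene.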
